A study of Mus musculus with 10 samples.

Results

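Oxidative phosphorylation is the last stage of respiration in the inner mitochondrial membrane. Complexes I and II take electrons from NADH and succinate, complex III passes them to cytochrome c, complex IV hands them to oxygen, and complex V, the ATP synthase, uses the proton gradient to make ATP. Most subunits are encoded in the nucleus, while a small set in complexes I, III, IV and V is encoded by mitochondrial DNA, and the assembly of these complexes needs products of both genomes. The nuclear genes were taken by name from the count table: symbols beginning with Nduf, Uqcr or Atp5, the genes Sdha to Sdhd, and the Cox4 to Cox8 subunit genes. Of 107 matching rows, 9 named as pseudogenes were dropped, 9 of the remaining 98 were at 0 in every library, and 89 genes had a count, out of 19014 genes with any count in the series. They comprise 44 genes of complex I, 4 of complex II, 8 of complex III, 16 of complex IV and 17 of complex V. Ndufa4 and its paralogue Ndufa4l2 were placed in complex IV, to which the NDUFA4 protein is now assigned.

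The RNA came from group 2 innate lymphoid cells (ILC2), lymphocytes without antigen receptors that secrete type 2 cytokines, sorted from the lungs of C57BL/6 mice with papain-induced inflammation as lineage-negative, CD90.2-positive cells with or without surface ST2 and KLRG1. There were 5 libraries of c-Maf knockout (KO) cells and 5 of wild-type (WT) cells, both after papain and both from cohoused littermates, so no library without papain enters the comparison. The labels do not name the knockout allele, the cell type in which it acts or the age of the mice. They also do not state that every library was made from a different mouse, and the p-values therefore reflect library-to-library spread, which may be technical.

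The KO libraries held 3620002 to 9867580 counts and 4052 to 7660 genes with a count, against 21400938 to 24489987 counts and 10577 to 12744 genes in the WT libraries. Maf, the targeted gene, had 0, 0, 0, 15.4 and 0 CPM (read counts scaled to a common library size) in KO libraries 1 to 5, against 93.2, 85.7, 42.4, 37.5 and 62 CPM in WT libraries 1 to 5 (log2 fold change -4.34, SE 2.06, adjusted p = 0.141). The KO value rests on 108 counts in library 4, below the WT range, and Maf passed as lower without that library (adjusted p = 0.00525), with DESeq2 (adjusted p = 0.0474) and with voom (adjusted p = 0.00572). Leaving out the library that holds a gene's KO counts leaves a KO group at or near 0. A pass as lower after that is nearly fixed in advance, for Maf and for single genes below, and adds no support. The scaling uses TMM factors, which ran from 0.180 to 0.928 in KO and from 1.46 to 1.91 in WT, so the scaling itself separated the groups. KO library 1 stood apart, with erythroid marker genes at 19.0% of its counts, against 0.0120 to 0.0759% in the other KO libraries and 0.00091 to 0.0025% in WT libraries. All 14 ILC2 markers were above 3 counts in every WT library and 11 to 14 of them in the KO libraries, and the test called 0 of the 14 (2 higher and 0 lower at an unadjusted p under 0.05, 3 higher by DESeq2, 2 lower by voom). ILC2 markers made up 0.0755% of KO library 1, against 0.876 to 1.71% of the other KO libraries and 0.866 to 1.28% of WT libraries. Myeloid markers summed to 0 to 0.0175% of KO libraries, against 0.00705 to 0.0724% of WT libraries, and B cell, T and NK cell, epithelial, and endothelial and stromal markers to at most 0.0564% of any KO library and 0.0172% of any WT library. Of 2, 1, 1, 1 and 1 tested genes of these lists, edgeR called 1, the myeloid gene Lyz2, which was lower in KO. DESeq2 called both myeloid genes lower and the epithelial gene higher, and voom called 1 myeloid gene, the B cell gene and the endothelial or stromal gene lower. All 5 tested erythroid markers were higher in KO by edgeR, 4 by voom and 0 by DESeq2. The part of depth, scaling and erythroid RNA in the results given here was not tested. In bulk RNA, fewer cells of a type and less RNA per cell cannot be told apart.

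The promoters show what these genes share in sequence. RefSeq windows of the GRCm38.p6 assembly, running from 250 bases before to 50 bases after the gene start, were found for 73 of the 89 genes and searched on both strands for motifs of 3 factors known for the promoters of respiratory genes. These were GCGCANGCG for NRF1, CCGGAAG for the ETS family with GABP, and CCATNTT for YY1. The NRF1 motif is nearly its own reverse complement, so matches on opposite strands can overlap by all but 1 base. Windows of Cox6a1, Sdha, Sdhd and Atp5b are printed 5′ to 3′ on the strand of the gene, with matches in capitals, since these genes span the outcomes described further on: Cox6a1 was present in most KO libraries, Sdha in 3, Sdhd in none and Atp5b in all.
Cox6a1: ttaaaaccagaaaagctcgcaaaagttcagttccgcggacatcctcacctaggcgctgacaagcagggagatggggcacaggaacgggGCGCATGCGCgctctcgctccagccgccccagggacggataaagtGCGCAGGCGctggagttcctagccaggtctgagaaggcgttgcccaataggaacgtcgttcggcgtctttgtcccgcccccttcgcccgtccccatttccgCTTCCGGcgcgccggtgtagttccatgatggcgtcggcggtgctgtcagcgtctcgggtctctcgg
Sdha: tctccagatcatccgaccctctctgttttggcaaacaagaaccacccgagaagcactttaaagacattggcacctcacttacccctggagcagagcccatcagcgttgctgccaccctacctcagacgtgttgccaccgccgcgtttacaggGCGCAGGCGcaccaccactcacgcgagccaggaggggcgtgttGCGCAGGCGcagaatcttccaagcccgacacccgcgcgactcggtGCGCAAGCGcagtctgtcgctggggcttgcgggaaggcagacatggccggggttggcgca
Sdhd: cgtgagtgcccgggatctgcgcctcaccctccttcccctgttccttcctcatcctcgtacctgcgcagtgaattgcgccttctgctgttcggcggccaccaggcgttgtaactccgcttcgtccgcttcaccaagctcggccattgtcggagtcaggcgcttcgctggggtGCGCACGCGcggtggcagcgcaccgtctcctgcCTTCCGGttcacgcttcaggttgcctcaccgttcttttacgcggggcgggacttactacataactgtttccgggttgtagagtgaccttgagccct
Atp5b: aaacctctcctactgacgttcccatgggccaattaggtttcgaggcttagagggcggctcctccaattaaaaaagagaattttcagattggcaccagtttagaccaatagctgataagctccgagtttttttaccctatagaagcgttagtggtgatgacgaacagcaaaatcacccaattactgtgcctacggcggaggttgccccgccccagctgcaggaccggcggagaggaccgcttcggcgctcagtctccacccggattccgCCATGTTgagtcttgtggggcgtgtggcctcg
They lie at chr5:115348909-115349208, chr13:74350191-74350490 and chr9:50603800-50604099 on the minus strand and at chr10:128083057-128083356 on the plus strand. Counted from the gene start, the Cox6a1 window held NRF1 matches that began at -162, -161 (overlapping, on opposite strands) and -117 and an ETS match at -16. The Sdha window held NRF1 matches at -98, -55 and -10, Sdhd an NRF1 match at -79 and an ETS match at -46, and Atp5b a single YY1 match at 19.

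An NRF1 match was found in 30.1% of the 73 oxidative phosphorylation windows, against 17.2% of the windows of 5864 tested genes and 7.03% of all 27025 windows. A YY1 match was found in 30.1%, against 19.0% and 18.2%. An ETS match was found in 24.7%, against 22.5% of tested genes and 9.93% of all windows. At least 1 of the 3 motifs stood in 67.1%, against 47.3% and 30.9%. The 21 windows of genes that later passed the test as lower in KO held an NRF1 match in 33.3% and any motif in 71.4%, and the 42 windows of tested genes that did not pass held them in 35.7% and 73.8%. A YY1 match was found in 19.0% of the windows of genes that passed and in 40.5% of those that did not, 4 of 21 against 17 of 42. These shares are descriptions of letters in a window and no test was made of them.

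**Figure D1:**
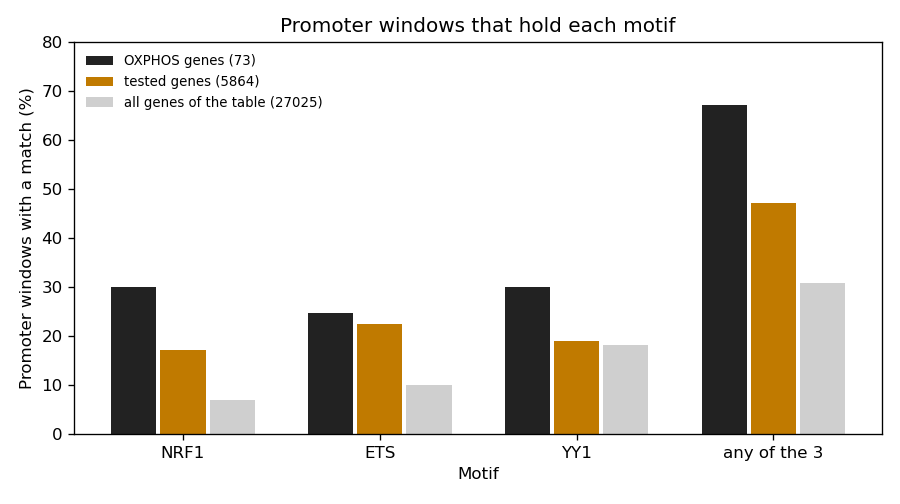
Share of promoter windows (y axis, percent) that hold each motif (x axis) among oxidative phosphorylation genes, tested genes and all genes of the RefSeq table. The black bars of the oxidative phosphorylation genes reach 30.1% for NRF1 and YY1 and 67.1% for any of the 3 motifs, above the bars of tested genes at 17.2%, 19.0% and 47.3%.

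Of the 89 genes, 74 had enough counts to be tested with edgeR. Of these, 25 were lower in KO and 0 were higher at an adjusted p under 0.05. That is 33.8% lower, against 27.1% lower and 1.5% higher over all 7490 tested genes. At an unadjusted p under 0.05, 32 were lower and 1 higher, against 2317 lower and 344 higher of the 7490 genes. DESeq2 called 32 of 72 genes of the set lower (44.4%) and 1 higher, against 23.3% lower and 1512 higher of 11211 genes. Its calls include genes outside the 74. With voom 34 of the 74 were lower (45.9%) and 0 higher, against 33.2% lower and 71 higher over all tested genes. The share that fell was 42.9% in complex I (15 of 35), 50% in complex II (2 of 4), 25% in complex III (2 of 8), 27.3% in complex IV (3 of 11) and 18.8% in complex V (3 of 16). The median log2 fold change over the 74 genes was -1.76, against -0.47 over all tested genes, and it was the same with genes at 0 in KO set at the bound that 3 counts allow. Without KO library 2, 3 or 4 it was -3.29, -3.49 or -2.66, against -0.90, -1.03 or -1.04 over all genes, and without KO libraries 1 and 5 it was -2.72, against -1.01. The median was -0.83 for the 51 tested genes with under 20% of their 31-base stretches in transcripts of other genes, and -4.21 for the 23 with more. By complex the median was -3.43 in complex I, -3.72 in complex II (-3.53 with bounds), 0.30 in complex III, -2.16 in complex IV and -0.92 in complex V. Without KO library 1, 28 of 79 tested genes of the set fell (35.4%, against 33.7% of all tested genes), and without KO libraries 1 and 5 together, 29 of 81 fell (35.8%, against 33.4%). Without KO library 2, 3, 4 or 5 the number was 37, 39, 38 or 32 of 79. These are 46.8, 49.4, 48.1 and 40.5% of the set, against 35.5, 37.9, 37.8 and 36.6% of all tested genes. Every KO library was below every WT library for 29 genes, or 39.2%, against 28.9% of all tested genes.

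The share that fell differed with the level of the gene. Genes were placed by their mean over all 10 libraries. That mean includes the KO values, so genes low in KO are drawn towards the low levels. At a mean under 5 CPM, 13 of 17 oxidative phosphorylation genes fell (76.5%, against 64.3% of all tested genes of that level). At 5 to 20 CPM, 11 of 31 fell (35.5%, against 39.4%), and at 20 to 50 CPM, 1 of 15 fell (6.67%, against 6.08%). None of the 11 above 50 CPM fell, against 0.459% of all genes at 50 to 100 CPM and 0.292% above. On this placement the share that fell lay within 4 percentage points of that of all genes from 5 CPM upwards and above it under 5 CPM. Placed by WT mean alone, 41.7% of the set fell under 5 CPM, 40% at 5 to 20 CPM and 25% at 20 to 50 CPM. The shares of all tested genes were 31.9, 41.3 and 19.9%. Above 50 CPM in WT none of the set fell, against 5.50% of all genes at 50 to 100 CPM and 0.986% above. Both placements use values that the test also used. The 25 genes that fell had a median of 9.36 CPM in WT, against 16.7 CPM in WT for the 49 that did not pass.

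**Figure D2:**
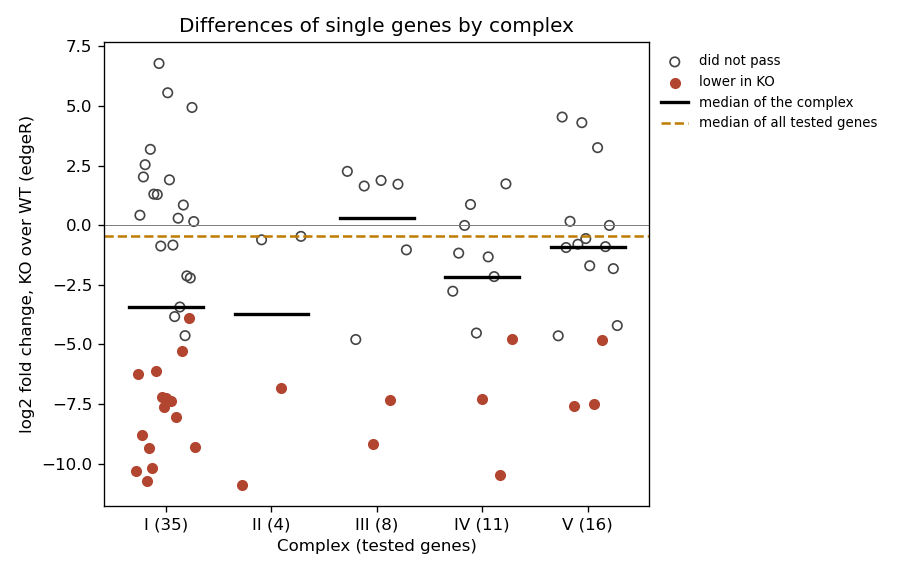
Log2 fold change of KO over WT (y axis) of each tested gene by complex (x axis, number of tested genes in brackets), with filled points for genes that passed. All filled points lie at -3.90 or lower, complex I holds 15 of them, and open points reach up to 6.78 in complex I.

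The differences came with loss of detection. A gene was called missing from a library with 3 counts or fewer. The number of the 74 tested genes above 3 counts was 9, 28, 22, 28 and 9 in KO libraries 1 to 5, against 71, 74, 74, 74 and 74 in WT libraries 1 to 5. These genes were picked for having enough counts to be tested. A gene missing from 4 or 5 KO libraries could meet that mainly through its WT counts. Near-complete detection in WT is therefore largely built in, here and over all tested genes. Of all 89 genes of the set, 9, 28, 23, 30 and 10 were above 3 counts in KO libraries 1 to 5. In WT libraries 1 to 5 the number was 74, 83, 81, 84 and 80. The 2 groups did not overlap on either count, and KO libraries 1 and 5, with the smallest totals, held the fewest. On average 74.1% of the tested genes were missing from a KO library and 0.811% from a WT library, against 64% and 1.5% over all tested genes. Missing from KO also differed with level. With genes placed by WT mean, it was 80% of the set under 5 CPM and 80.5% at 5 to 20 CPM. It was 68.8% at 20 to 50 CPM, 40% at 50 to 100 CPM and 20% above. Over all tested genes of these levels it was 74.7, 79.0, 62.4, 40.2 and 14.0%. With every library thinned to the smallest total, 66.2 to 87.8% of the 74 genes were missing from the KO libraries and 0 to 8.11% from the WT libraries, against 57.9 to 83.1% and 2.02 to 8.69% of all tested genes. Of the 74, 19 were missing from all 5 KO libraries and 26 from 4, and 1, Atp5b, was present in all 5. Of all tested genes, 22.3% were missing from all 5 and 7.06% present in all 5. All 19 genes missing everywhere in KO were among the 25 that fell.

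**Figure D3:**
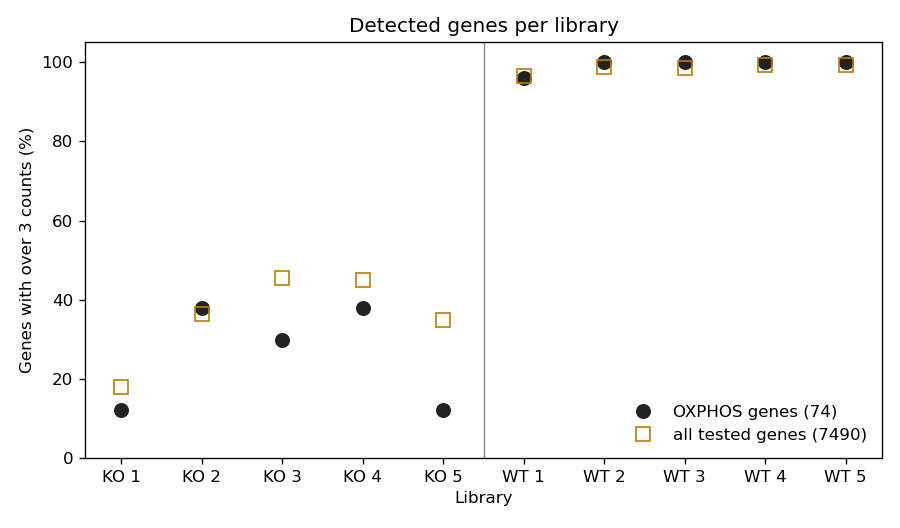
Percent of genes above 3 counts (y axis) in each library (x axis, KO left of WT) for the 74 tested oxidative phosphorylation genes and for all 7490 tested genes. The filled points lie at 12.2 to 37.8% in KO and 95.9 to 100% in WT, and in KO libraries 1, 3, 4 and 5 they lie below the open squares.

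Over all 89 genes of the set, of which 31 were missing from all 5 KO libraries, the KO libraries held different genes. Any pair of KO libraries shared 2 to 15 of the 9 to 30 detected genes of the set. The largest overlap was between KO libraries 2 and 4, whose 15 shared genes were 53.6% of the 28 detected in library 2 and 50% of the 30 in library 4. KO libraries 1 and 5 shared 2 genes, 22.2% of 9 and 20% of 10. Between pairs of WT libraries 73 to 82 genes were shared. In the median tested gene of the set, 1 library held 98.0% of all KO counts, whereas the highest WT library held 37.5% of the WT counts (90.9% and 34.6% over all tested genes). The most abundant gene of the set also changed between KO libraries: Ndufaf8 in library 1, Atp5b in libraries 2 and 3, Atp5d in library 4 and Ndufa8 in library 5, against Atp5b in all 5 WT libraries. From 4 to 11 genes held 90% of the set's counts in a KO library, against 29 to 45 in a WT library. The shared genes, the most abundant gene and the genes for 90% of counts were not worked out over all genes. They are therefore not shown to be particular to the set.

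**Figure D4:**
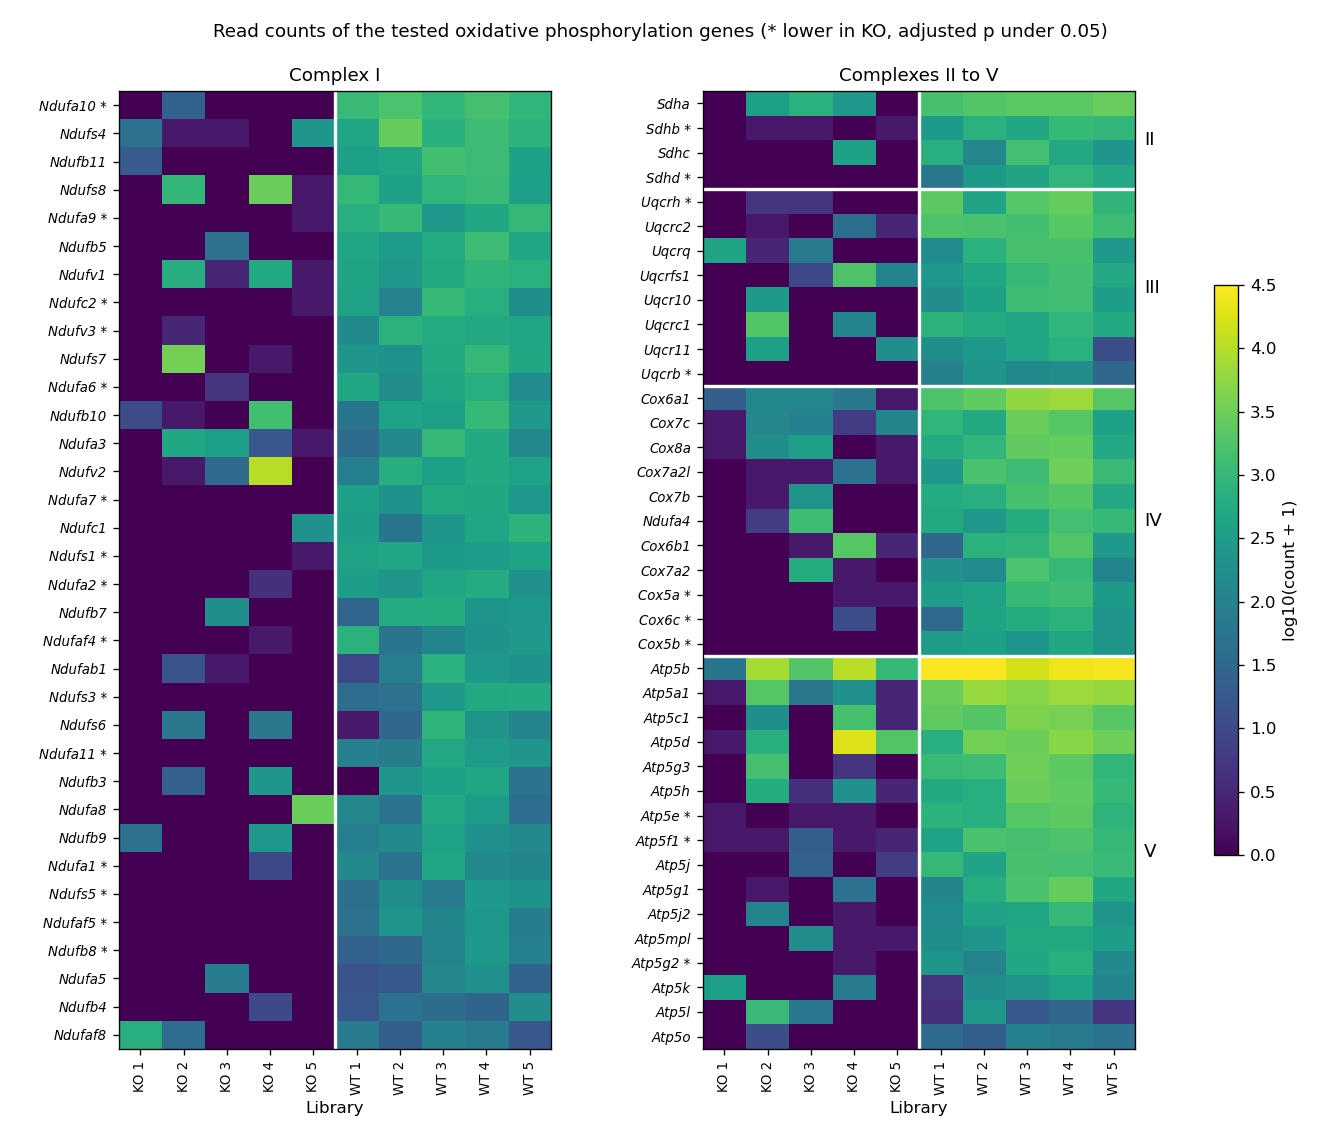
Read counts as log10(count + 1) (colour) of 73 of the 74 tested genes (rows, by complex and by WT level within it) in each library (columns, KO left of WT), with an asterisk on the 25 genes that fell. WT columns are filled almost throughout, while each KO column holds single bright cells, such as Ndufv2 and Atp5d in KO library 4, among genes at 0.

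Complex I is the NADH dehydrogenase, and its largest group of members are accessory subunits around a core that carries the flavin and the iron-sulphur clusters. The 15 genes that fell were Ndufa1, Ndufa2, Ndufa6, Ndufa7, Ndufa9, Ndufa10, Ndufa11, Ndufb8, Ndufc2, Ndufs1, Ndufs3, Ndufs5, Ndufv3, Ndufaf4 and Ndufaf5. They comprise 11 of 25 tested accessory subunits, 2 of 7 core subunits and 2 of 3 assembly factors. Ndufa7, an accessory subunit (ENSMUSG00000041881, GRCm38 chr17:33824572-33838317, plus strand), had no count in any KO library, against 9.71, 4.4, 16.4, 10.7 and 5.6 CPM in WT libraries 1 to 5. It was thus at least 72.1-fold lower in KO (adjusted p = 0.00163). Ndufa11, an accessory subunit of the membrane arm, was likewise at 0 in KO, against 2.61, 1.81, 15.7, 6.7 and 5.26 CPM in WT, at least 48.9-fold lower (adjusted p = 0.00163). Ndufs5, an accessory subunit on the intermembrane side, was at 0 in KO, against 1.29, 3.82, 2.1, 6.11 and 4.71 CPM in WT, at least 30.6-fold lower (adjusted p = 0.00163). Other transcripts share 47.3% of the 31-base stretches of the Ndufs5 transcript, so its counts are less certain. For all 3 genes no KO library overlapped any WT library.

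Ndufaf5 encodes an assembly factor that modifies a core subunit. It was at 0 in KO, against 1.38, 5.19, 3.39, 5.62 and 1.8 CPM in WT, at least 28.9-fold lower in KO (adjusted p = 0.00163). Ndufa10, an accessory subunit and the complex I gene with the highest WT mean in CPM, which is not corrected for length, had 0, 3.6, 0, 0 and 0 CPM in KO, against 31.6, 37.9, 28.2, 32.8 and 21 CPM in WT (log2 fold change -5.27, SE 1.85, adjusted p = 0.0400). All its KO counts came from library 2, and the call was lost under several settings given in the closing section. Ndufs4, an accessory subunit whose loss is known to cause an early mitochondrial encephalopathy in mice and humans, had 56.5, 0.15, 0.137, 0 and 102 CPM in KO, against 13.3, 62, 21.9, 26.6 and 18.7 CPM in WT (log2 fold change 0.15, SE 1.81, adjusted p = 0.968). KO libraries 1 and 5 lay within or above the WT range of Ndufs4 and the other 3 lay below it, and the sign of its fold change turned under 6 settings. Without KO libraries 1 and 5 Ndufs4 passed as lower (log2 fold change -8.22, adjusted p = 0.00852). Ndufa3, an accessory subunit, had 0, 71.3, 47, 2.28 and 0.438 CPM in KO, against 1.03, 2.91, 30.1, 12.3 and 2.84 CPM in WT (log2 fold change 1.30, SE 1.65, adjusted p = 0.623), with 2 KO libraries above every WT library and its sign turned by voom.

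The core subunits of complex I described here went different ways. Ndufs3, of the arm that leads electrons to ubiquinone, was at 0 in KO, against 1.15, 1.1, 7.84, 12 and 12.9 CPM in WT, and at least 58.1-fold lower (adjusted p = 0.00165). Other transcripts hold 55% of its 31-base stretches. Ndufs1, the largest core subunit and a carrier of iron-sulphur clusters, had 0, 0, 0, 0 and 0.438 CPM in KO, against 11.1, 10.3, 8.56, 6.88 and 9.31 CPM in WT. The level in WT was 221 (95% counting interval 39.7 to 8743) times that in KO (adjusted p = 0.00163), and 70.4% of its exonic bases lie inside the span of another gene. Ndufs1 and Ndufs3, like the next 4 genes except Ndufv2, were chosen after their values were seen.

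Ndufv2, a core subunit at the site of NADH oxidation, had 0, 0.15, 4.52, 1497 and 0 CPM in KO, against 2.43, 14.5, 10.7, 12.4 and 9.01 CPM in WT (log2 fold change 4.94, SE 2.35, adjusted p = 0.141). Its KO counts came almost wholly from library 4, far above the WT range, and 3 KO libraries were at or near 0. Ndufv1, which binds the flavin, had 0, 95.1, 0.274, 78.4 and 0.438 CPM in KO, against 12.3, 6.08, 17, 19.4 and 16.8 CPM in WT (log2 fold change 1.29, SE 1.7, adjusted p = 0.640). Ndufs7, an iron-sulphur subunit, had 0, 546, 0, 0.143 and 0 CPM in KO, against 6.53, 4.29, 16.1, 21.9 and 11.4 CPM in WT (log2 fold change 3.18, SE 2.28, adjusted p = 0.355). Ndufs8, another iron-sulphur subunit, had 0, 140.1, 0, 423 and 0.438 CPM in KO, against 29, 8.38, 27.8, 24.1 and 7.85 CPM in WT (log2 fold change 2.54, SE 1.99, adjusted p = 0.403). In each of these 4 genes 1 or 2 KO libraries lay above every WT library and the rest below every WT library, with the exception of library 3 for Ndufv2, which lay within the WT range. The sign of all 4 was turned by voom, and those of Ndufv2 and Ndufs7 also without KO library 4 or KO library 2. Ndufs7 passed as lower without KO library 2 (log2 fold change -7.63, adjusted p = 0.00598), and Ndufv2 passed as higher without KO libraries 1 and 5 (log2 fold change 5.63, adjusted p = 0.0354).

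The same pattern was seen in 2 further genes chosen after their values were seen. Ndufa8, an accessory subunit, had 0, 0, 0, 0 and 1311 CPM in KO, against 3.41, 1.12, 15.5, 6.88 and 0.956 CPM in WT (log2 fold change 5.56, SE 2.72, adjusted p = 0.154), so all of its KO counts stood in library 5. Without that library Ndufa8 passed as lower (log2 fold change -10.13, adjusted p = 0.00624). Ndufaf8, an assembly factor that stabilises NDUFAF5, had 773, 6, 0, 0 and 0 CPM in KO, against 1.92, 0.492, 2.73, 1.53 and 0.364 CPM in WT (log2 fold change 6.78, SE 2.7, adjusted p = 0.0731). Its KO counts came from libraries 1 and 2, which lay above the WT range, and it had the largest positive fold change of the 74 genes. It passed as higher with RLE scaling, with no filter and without KO library 2, 3, 4 or 5 (adjusted p 0.0261 to 0.0403). Of its 697 KO counts, 657 were in library 1, which all these settings kept. Without KO library 1 it was not called higher. Scaled by library size alone, its KO mean was 28.5 CPM, against 156 CPM with TMM scaling.

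Complex II, succinate dehydrogenase, also works in the tricarboxylic acid cycle and is the complex with no subunit from mitochondrial DNA. Its 4 genes have transcripts of which other genes share at most 2.26%. Sdha, the flavoprotein that oxidises succinate (ENSMUSG00000021577, chr13:74322254-74350280, minus strand), had 0, 54.9, 100.9, 38.9 and 0 CPM in KO, against 45.3, 43.7, 67, 50 and 64 CPM in WT (log2 fold change -0.47, SE 1.64, adjusted p = 0.874). It was at 0 in KO libraries 1 and 5, above the WT range in KO library 3, within that range in KO library 2 and below it in KO library 4. Without KO libraries 1 and 5 its log2 fold change was 0.22. Sdhb, the iron-sulphur subunit (ENSMUSG00000009863, chr4:140961203-140979193, plus strand), had 0, 0.15, 0.137, 0 and 0.438 CPM in KO, against 7.68, 16.9, 14.7, 22.7 and 21.6 CPM in WT. Its KO values rest on 3 counts in all, and the level in WT was 139 (95% counting interval 47.4 to 672) times that in KO (adjusted p = 0.00176).

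Sdhc and Sdhd form the membrane anchor. Sdhc (ENSMUSG00000058076, chr1:171127165-171150603, minus strand) had 0, 0, 0, 52.6 and 0 CPM in KO, against 19.2, 2.68, 42.8, 11.3 and 5.19 CPM in WT (log2 fold change -0.61, SE 1.85, adjusted p = 0.850), so KO library 4 lay above every WT library and the other KO libraries were at 0. The sign for Sdhc was positive without WT library 3 (0.11) and without KO libraries 1 and 5. Without KO library 4, its only KO library with counts, the KO group was at 0. Sdhc then passed as lower (log2 fold change -11.63, adjusted p = 0.00555), a call nearly fixed in advance. Sdhd (ENSMUSG00000000171, chr9:50596357-50603812, minus strand) had no count in KO, against 1.8, 6.26, 12.8, 20.2 and 11.6 CPM in WT, and was at least 87.2-fold lower in KO (adjusted p = 0.00163). This was the highest such bound in the set. The promoter of Sdhd, printed with that of Sdha, holds an NRF1 and an ETS match, and that of Sdha 3 NRF1 matches. The subunits of 1 complex thus ran from absent in every KO library to present in 3.

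Complex III is the cytochrome bc1 complex. Its core subunit Uqcrfs1, the Rieske iron-sulphur protein, had 0, 0, 1.23, 252 and 43.8 CPM in KO, against 7.05, 10.3, 30.2, 30.8 and 11.8 CPM in WT (log2 fold change 1.72, SE 1.88, adjusted p = 0.563), with KO libraries 4 and 5 above every WT library and the rest below, and a sign that turned without KO library 4 and with voom. Uqcrh, the hinge protein near cytochrome c1, had 0, 0.6, 0.548, 0 and 0 CPM in KO, against 67.7, 9.41, 62.1, 60.1 and 20.1 CPM in WT (log2 fold change -7.32, SE 1.91, adjusted p = 0.00619). It was at 0 in 3 KO libraries and at 4 counts in each of the other 2. Uqcrb, an accessory subunit near the ubiquinone sites, was at 0 in KO, against 2.55, 4.92, 4.32, 3.69 and 0.705 CPM in WT, at least 25.9-fold lower in KO (adjusted p = 0.00163), with 58.2% of its 31-base stretches in other transcripts. Uqcrc2, which with UQCRC1 forms the part facing the matrix, had 0, 0.15, 0, 5.99 and 0.876 CPM in KO, against 49.2, 36, 41.7, 47.5 and 29.1 CPM in WT (log2 fold change -4.79, SE 1.78, adjusted p = 0.0527). Every KO library lay below every WT library for Uqcrc2. It did not pass in the test reported, and it passed as lower with library size alone, DESeq2 and voom and without KO library 2, 3 or 4 (adjusted p 0.00474 to 0.0471).

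Uqcrc1, its partner, was chosen after its values were seen. It had 0, 288, 0, 15.3 and 0 CPM in KO, against 22.8, 12.9, 13.8, 20.2 and 13 CPM in WT (log2 fold change 1.88, SE 1.99, adjusted p = 0.549), so the 2 partners had fold changes of opposite sign. Of the KO counts of Uqcrc1, 1919 were in library 2 and 107 in library 4, and without library 2 the log2 fold change was -2.07. Uqcrq, an accessory subunit, had 501, 0.3, 10.1, 0 and 0 CPM in KO, against 4.21, 17, 45.7, 33.6 and 6.17 CPM in WT (log2 fold change 2.26, SE 2.09, adjusted p = 0.488). Its value in KO library 1 rests on 426 counts, and its log2 fold change was -3.04 when that library was left out. Cytochrome c1 (Cyc1), the haem-carrying core of complex III outside the name rule, had 0, 0, 49.7, 0 and 45.1 CPM in KO, against 7.28, 14.9, 9.76, 34.3 and 16.4 CPM in WT (log2 fold change 0.20, SE 1.77, adjusted p = 0.953), and its sign turned under 7 settings. Cytochrome c (Cycs), the carrier between complexes III and IV, had 0, 4.5, 0, 4.56 and 0 CPM in KO, against 5.41, 3.35, 29.6, 13.1 and 8.6 CPM in WT (log2 fold change -2.65, SE 1.43, adjusted p = 0.203). Neither passed the test, at an unadjusted p under 0.05 or with DESeq2 or voom.

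Complex IV is cytochrome c oxidase. Its catalytic core is encoded by mitochondrial DNA, so its nuclear subunits are accessory. Cox6a1, the widely expressed form of subunit VIa (ENSMUSG00000041697, chr5:115345642-115348981, minus strand), was the most abundant of them in WT per kilobase of transcript and, with Cox7c, the most widely detected in KO. It had 25.9, 18.9, 16.3, 8.7 and 0.438 CPM in KO, against 50.5, 56.3, 172, 151 and 47.4 CPM in WT (log2 fold change -2.77, SE 1.49, adjusted p = 0.203). All 5 KO libraries lay below all 5 WT libraries for Cox6a1, 4 of them with over 3 counts, and it passed only when scaled by library size alone. Cox7c had 1.18, 18.2, 12.9, 0.713 and 49.5 CPM in KO, against 26, 12.1, 94.2, 44.9 and 8.67 CPM in WT (log2 fold change -1.17, SE 1.5, adjusted p = 0.628), and Cox8a had 1.18, 25.2, 46.7, 0 and 0.438 CPM in KO, against 17, 20.6, 76.8, 59.2 and 12 CPM in WT (log2 fold change -1.33, SE 1.68, adjusted p = 0.623). Both are small accessory subunits, and for both the KO and WT ranges overlapped. Other transcripts share 55.7% of the 31-base stretches of Cox7c.

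Cox5a, Cox5b and Cox6c fell. Cox5b was at 0 in KO, against 8.45, 8.29, 7.06, 10.6 and 5.46 CPM in WT, at least 64.5-fold lower in KO (adjusted p = 0.00163). Cox5a had 0, 0, 0, 0.143 and 0.438 CPM in KO, against 9.54, 8.76, 31.2, 27.5 and 6.3 CPM in WT, and the level in WT was 196 (95% counting interval 54.2 to 1619) times that in KO (adjusted p = 0.00214). Both encode subunits that sit on the matrix side next to the catalytic core. Cox6c had 0, 0, 0, 1.57 and 0 CPM in KO, against 0.974, 9.34, 18.7, 17.7 and 5.1 CPM in WT (log2 fold change -4.77, SE 1.52, adjusted p = 0.0227), with KO library 4 above the lowest WT library. The call for Cox6c was lost at an adjusted p of 0.01 and without KO libraries 1 and 5. Shared 31-base stretches made up 47.2% of Cox5a, 32.7% of Cox5b and 28.1% of Cox6c.

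Several complex IV subunits have tissue forms. Of the muscle forms, Cox6a2 and Cox8b were at 0 in every library, and Cox7a1 was at 0 in KO, against 0, 0, 0.15, 0.819 and 0 CPM in WT. Cox4i1, the common form of the largest nuclear subunit, was also at 0 in every library, and Cox4i2, its partner regulated by oxygen, had a count in 1 WT library only. All exonic bases of Cox4i1, and likewise of Cox6a2, Ndufa13 and a second Atp5o identifier, lie inside the span of another gene, and of 1477 protein-coding genes of this kind 94.4% were at 0 everywhere, against 34.9% of 14059 genes with no overlap. What these zeros say of expression was not tested. Cox7a2, the common partner of Cox7a1, had 0, 0, 82.4, 0.143 and 0 CPM in KO, against 5.3, 3.24, 49.6, 22.9 and 2.43 CPM in WT (log2 fold change -0.01, SE 1.91, adjusted p = 0.998), and its sign turned under 9 settings. Without KO library 3 Cox7a2 passed as lower (log2 fold change -8.07, adjusted p = 0.00605). Cox7a2l, whose full-length protein joins complexes III and IV into supercomplexes, had 0, 0.15, 0.137, 6.56 and 0.438 CPM in KO, against 7.39, 35.5, 36.6, 71.3 and 24.8 CPM in WT (log2 fold change -4.52, SE 1.71, adjusted p = 0.0573), with every KO library below every WT library. Cox7a2l passed as lower with library size alone, DESeq2 and voom and without KO library 3 or 4 (adjusted p 0.00607 to 0.0492). The form of the protein in these mice was not examined.

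Ndufa4 had 0, 0.75, 170.5, 0 and 0 CPM in KO, against 15.2, 6.03, 18.7, 32 and 22.2 CPM in WT (log2 fold change 0.87, SE 1.95, adjusted p = 0.796). Only KO library 3 was above the WT range for Ndufa4, and without it Ndufa4 passed as lower (log2 fold change -6.15, adjusted p = 0.00781). Its paralogue Ndufa4l2, induced by hypoxia in other cells, was at 0 in every library, and 0% of the exonic bases of Cox7a2 and 2.92% of those of Ndufa4l2 lie inside another gene. Cox6b1, chosen after its values were seen, had 0, 0, 0.137, 301 and 0.876 CPM in KO, against 0.831, 16.5, 25.1, 42.3 and 6.21 CPM in WT (log2 fold change 1.73, SE 2.09, adjusted p = 0.603). Without KO library 4 Cox6b1 passed as lower (log2 fold change -5.95, adjusted p = 0.0151).

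Complex V has a soluble F1 part, which makes ATP, and a membrane part, Fo, joined by stalks. Per kilobase of transcript, all 5 F1 genes were among the 11 highest of the set in WT, and an F1 gene was the only one detected in every KO library. Atp5b, the catalytic beta subunit (ENSMUSG00000025393, chr10:128083273-128090391, plus strand), had 63.5, 1178, 261, 1539 and 442 CPM in KO, against 828, 639, 481, 542 and 623 CPM in WT (log2 fold change 0.16, SE 1.05, adjusted p = 0.935). These KO values rest on 54, 7850, 1909, 10797 and 1009 counts. KO libraries 2 and 4 were above every WT library and KO libraries 1, 3 and 5 below every WT library. The log2 fold change of Atp5b ran through 0 under the settings tried, for instance -1.06 when scaled by library size alone. Atp5a1, the alpha subunit, had 1.18, 324, 8.08, 25.9 and 0.876 CPM in KO, against 87.7, 140.1, 154, 153 and 139 CPM in WT (log2 fold change -0.90, SE 1.58, adjusted p = 0.734). KO library 2 was above the WT range of Atp5a1 and the others below it, and Atp5a1 passed as lower with voom (adjusted p = 0.0190).

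Atp5c1, the gamma subunit that turns inside F1, had 0, 26, 0, 225 and 0.876 CPM in KO, against 72, 43.8, 126, 82.8 and 48.3 CPM in WT (log2 fold change -0.56, SE 1.82, adjusted p = 0.863), with KO library 4 above and 4 KO libraries below the WT range, and it passed as lower with voom (adjusted p = 0.0466). Atp5d, the delta subunit at the foot of the central stalk, had 1.18, 109, 0, 2604 and 816 CPM in KO, against 18.9, 76.5, 92.4, 109 and 73.4 CPM in WT (log2 fold change 3.25, SE 1.81, adjusted p = 0.218). Its 18266 counts in KO library 4 were the highest of any gene of the set in a KO library, 26.6% of its exonic bases lie inside another gene, and voom turned its sign. Atp5e, the epsilon subunit of the same stalk, was the F1 gene that fell. It had 1.18, 0, 0.137, 0.143 and 0 CPM in KO, against 22.8, 15.6, 62.2, 51.1 and 19.1 CPM in WT, 3 counts over the KO group, and the level in WT was 267 (95% counting interval 91.3 to 1295) times that in KO (adjusted p = 0.00516). The delta and epsilon subunits bind each other in F1, and in KO library 4 Atp5d had 2604 CPM while Atp5e rested on 1 count.

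The c subunit, which forms the rotating ring of Fo, is made as the same mature protein from 3 genes with different targeting sequences. Atp5g1 had 0, 0.15, 0, 6.84 and 0 CPM in KO, against 3.29, 14.1, 48.9, 59.3 and 11.1 CPM in WT (log2 fold change -4.21, SE 1.82, adjusted p = 0.101). It passed as lower with DESeq2 (adjusted p = 0.0381), voom (adjusted p = 0.0226) and without KO library 4 (log2 fold change -8.79, adjusted p = 0.00555). Atp5g2 had 0, 0, 0, 0.143 and 0 CPM in KO, against 6.76, 2.3, 15.1, 15.8 and 3.16 CPM in WT. Atp5g2 fell, and its level in WT was 203 (95% counting interval 36.3 to 8008) times that in KO (adjusted p = 0.00163). Atp5g3 had 0, 227, 0, 0.57 and 0 CPM in KO, against 30.6, 27.5, 99.1, 51.1 and 20.7 CPM in WT (log2 fold change -0.01, SE 1.99, adjusted p = 0.998), and without KO library 2, which held nearly all of its KO counts, it passed as lower (log2 fold change -7.85, adjusted p = 0.00716). Other transcripts hold 100% of the 31-base stretches of the Atp5g2 transcript and 67.3% of those of Atp5g1, but 0% of those of Atp5g3, so the first 2 are uncertain. In WT, Atp5g3 was the most abundant of the 3 per kilobase of transcript, at 64.1 CPM per kilobase, against 45.9 for Atp5g1 and 19.6 for Atp5g2.

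Atp5f1, the b subunit of the outer stalk, had 1.18, 0.15, 3.01, 0.143 and 0.876 CPM in KO, against 11.2, 36.3, 44.9, 38.7 and 22.2 CPM in WT (log2 fold change -4.83, SE 1.52, adjusted p = 0.0217). It was the only one of the 25 genes that fell with a count in every KO library, and the call was lost with RLE scaling, at an adjusted p of 0.01 and without WT library 4. A further 3 genes of Fo and the stalk were chosen after their values were seen. Atp5k, subunit e, had 414, 0, 0, 10.4 and 0 CPM in KO, against 0.115, 3.53, 6.46, 8.92 and 2.43 CPM in WT (log2 fold change 4.30, SE 2.39, adjusted p = 0.218). Atp5l, subunit g, had 0, 159, 8.63, 0 and 0 CPM in KO, against 0.0859, 5.92, 0.481, 0.642 and 0.091 CPM in WT (log2 fold change 4.54, SE 2.27, adjusted p = 0.165), with 85.4% of its 31-base stretches in other transcripts. Atp5o, the oligomycin-sensitivity protein that ties the outer stalk to F1, had 0, 1.65, 0, 0 and 0 CPM in KO, against 1.03, 0.492, 2.85, 1.59 and 1.14 CPM in WT (log2 fold change -1.82, SE 1.15, adjusted p = 0.285), and 73.3% of its exonic bases lie inside another gene. Each of these 3 had its KO counts mainly in 1 library, and Atp5o passed as lower without KO library 2 (log2 fold change -8.12, adjusted p = 0.0183).

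Summed over each complex, the KO libraries ranged above and below the WT libraries. Complex I summed to 921, 882, 96.8, 2277 and 1499.6 CPM in KO libraries 1 to 5, against 285, 301, 558, 464 and 284 CPM in WT libraries 1 to 5. On this scaling the KO sum was above every WT sum in 4 libraries, although 15 of the complex I genes fell. Scaled by library size alone, complex I summed to 165, 647, 81.7, 1619 and 946 CPM in KO, against 414 to 869 CPM in WT. Only KO libraries 4 and 5 were then above every WT library, and KO libraries 1 and 3 were below every WT library. Complex II summed to 0, 55.1, 101.1, 91.5 and 0.438 CPM in KO, against 74, 69.5, 137, 104 and 102 CPM in WT, and the KO sums were 0 or near 0 in libraries 1 and 5. Complex III summed to 501, 385, 11.9, 273 and 116 CPM in KO, against 163, 104, 249, 241 and 88.5 CPM in WT. Complex IV summed to 28.2, 63.3, 359, 321 and 64.4 CPM in KO, against 158, 191, 581, 524 and 152 CPM in WT, and complex V to 482, 2131, 308, 4440.4 and 1264 CPM in KO, against 1137, 1045, 1303, 1237 and 1025 CPM in WT. The ranges of KO and WT sums overlapped in all 5 complexes. The log2 ratio of the KO mean to the WT mean was 1.59, -0.97, 0.61, -0.94 and 0.59 for complexes I to V, and scaled by library size alone it was 0.097, -2.13, -1.14, -2.14 and -0.75. The direction for complexes III and V thus depends on the scaling, as does nearly all of the difference for complex I.

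**Figure D5:**
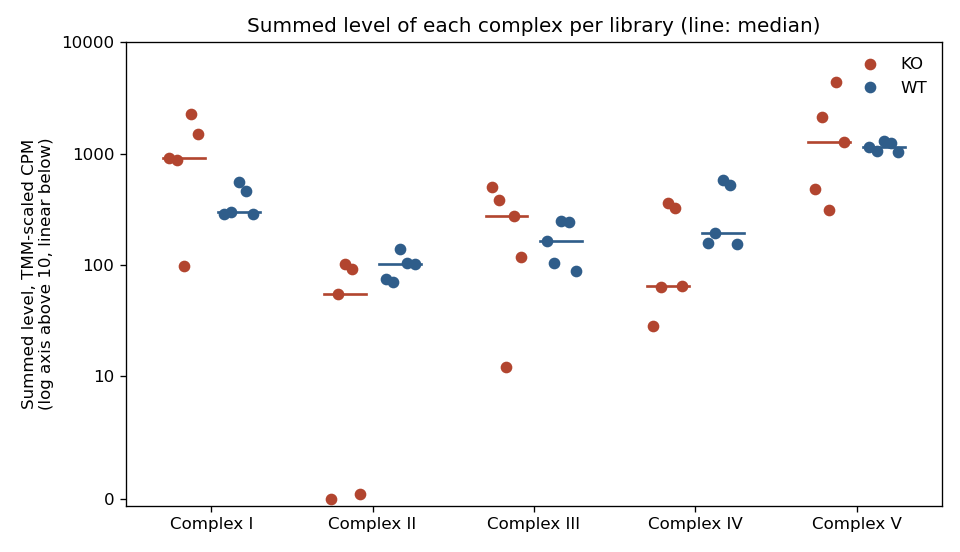
Summed TMM-scaled CPM (y axis, log above 10 and linear below) of the genes of each complex (x axis) in each KO (left) and WT (right) library, with lines at medians. KO points spread over more than a factor of 10 in each complex, from 28.2 to 359 CPM in complex IV, where WT points lie between 152 and 581 CPM.

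Measured against total counts, the 89 genes made up 0.0345, 0.258, 0.0739, 0.526 and 0.186% of KO libraries 1 to 5, against 0.264, 0.312, 0.44, 0.482 and 0.31% of WT libraries 1 to 5. KO library 4 lay above every WT library in this share and the other 4 KO libraries below every WT library. The tested subunits encoded by mitochondrial DNA were detected throughout. Of the 13 such genes, 7 were tested and all 7 were above 3 counts in every library, while mt-Atp8, mt-Co3 and mt-Nd4l were listed at 0 and mt-Atp6, mt-Co2 and mt-Nd3 were too low to test. The test called 0 of the 7 (0 at an unadjusted p under 0.05, 4 higher by DESeq2, 0 by voom). mt-Cytb, the mitochondrially encoded core of complex III, had 8414, 1219, 1334, 7465 and 3075 CPM in KO, against 2189, 1221, 1677, 1509.6 and 1365 CPM in WT (log2 fold change 1.43, SE 0.82, adjusted p = 0.233). mt-Nd2 and mt-Nd4, of complex I, had 887 ± 458 and 2248 ± 2506 CPM in KO, against 258 ± 93.1 and 835 ± 248 CPM in WT (SD, n = 5 each), with an adjusted p of 0.233 for mt-Nd2 and 0.321 for mt-Nd4. With library size alone the signs of mt-Cytb and mt-Nd4 were negative. On that scaling the KO mean was also below the WT mean for mt-Co1, mt-Nd1, mt-Nd5 and mt-Nd6. For mt-Nd2 it was above, at 465 against 432 CPM. The mitochondrially encoded subunits made up 0.642, 1.37, 1.34, 2.23 and 1.49% of KO libraries 1 to 5, against 2.17 to 2.80% of WT libraries.

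For each 100 counts of mitochondrially encoded subunits, KO libraries 1 to 5 held 5.38, 18.8, 5.53, 23.6 and 12.5 counts of the nuclear genes, against 9.41, 14.4, 17.3, 17.3 and 14.3 in WT libraries 1 to 5. The KO ratios thus lay on both sides of the WT range. Cytosolic ribosomal protein genes, another large set of genes active in all cells, gave a contrast in detection. Of 72 with a count, 70 were tested, and the test called 0 lower and 0 higher (0 lower and 2 higher at an unadjusted p under 0.05, 17 higher by DESeq2, 1 lower by voom). They were missing in 4.29% of cases from KO libraries, against 74.1% for the oxidative phosphorylation genes, but their median WT level was 276 CPM, against 12.4 CPM. The difference in level between these sets was not removed from this comparison.

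Outside the name rule, other genes of the respiratory chain and its supply were counted in lists. Among assembly factors, 1 of 5 tested for complex I (Tmem126a), 0 of 1 for complex II, 1 of 3 for complex III (Ttc19), 5 of 10 for complex IV (Cox15, Pet100, Sco1, Cmc2 and Higd2a) and 2 of 4 for complex V (Atpif1 and Tmem70) fell, and edgeR called 0 higher. At an unadjusted p under 0.05, 1 gene was higher in the list of complex I, DESeq2 called 1 higher in that of complex IV, and voom called 0 higher. For complex II the 1 tested gene was not called at an unadjusted p under 0.05, by DESeq2 or by voom. Cox15 takes part in making haem a for complex IV, and Sco1 delivers copper to it. Cox15 had 0, 0.15, 0, 0.285 and 0 CPM in KO, against 12.9, 13.9, 14.6, 10.04 and 4.91 CPM in WT (log2 fold change -6.57, SE 1.35, adjusted p = 0.00163). Atpif1, which encodes the inhibitor of the ATP synthase, was at 0 in KO, against 0.516, 1.03, 3.48, 2.85 and 4.14 CPM in WT, at least 19.5-fold lower in KO (adjusted p = 0.00167). Against the 27.1% of all tested genes that fell, the share was higher in the lists of complexes IV and V and lower in that of complex I, on few genes.

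Of 10 tested regulators of mitochondrial biogenesis, 4 fell: Tfam, which packages and transcribes mitochondrial DNA, Pprc1, a coactivator, Nrf1, whose motif was sought in the promoters, and Mterf3. Tfam had 0, 0, 0, 0.143 and 0 CPM in KO, against 10.9, 11.3, 3.66, 4.03 and 4.69 CPM in WT, and the level in WT was 167 (95% counting interval 29.9 to 6598) times that in KO (adjusted p = 0.00163). Nrf1 had 0, 0.15, 0, 0.143 and 0.438 CPM in KO, against 19.9, 20.8, 13.5, 38.7 and 26.1 CPM in WT, and the level in WT was 198 (95% counting interval 67.7 to 959.7) times that in KO (adjusted p = 0.00206). Gabpa and Yy1, which encode the factors of the other motifs, did not pass, with log2 fold changes of -1.15 (adjusted p = 0.707) and -0.32 (adjusted p = 0.927), and they too were chosen after their values were seen. Of 12 tested carriers and shuttles of the inner and outer membrane, 4 fell: Etfdh, Vdac3, Dhodh and Vdac1. Of 18 tested genes of the tricarboxylic acid cycle and pyruvate dehydrogenase, 7 fell: Suclg1, Fh1, Idh3a, Pdha1, Idh2, Dld and Pdhb. Fh1, fumarase, which uses the product of complex II, was at 0 in KO, against 3.81, 7.64, 6.91, 5.89 and 12.4 CPM in WT, at least 60.4-fold lower in KO (adjusted p = 0.00163). The 33.3 to 40% that fell in these lists compare with 33.8% of the 74 oxidative phosphorylation genes and 27.1% of all tested genes, and edgeR called 0 higher in these lists (0 at an unadjusted p under 0.05, 1 carrier by DESeq2, 0 by voom). Of 6 skeletal and cardiac muscle genes, 4 were at 0 in every library and the 1 tested did not pass.

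Within the WT group the set was ordered by level per kilobase of transcript. Atp5b led with 325 CPM per kilobase, followed by Cox6a1 with 167. Atp5e (81.1), Uqcrh (80.3) and Atp5d (79.6) were neighbours at ranks 4 to 6, with WT ranges that overlapped. The highest complex I gene was Ndufc1, an accessory subunit, at rank 19 with 29.4 CPM per kilobase, and the 4 subunits of complex II spanned 5.12 (Sdhc) to 18.6 (Sdha). The median coefficient of variation among the 5 KO libraries was 218% for the 65 tested genes with a count there, against 197% for all tested genes with a count. Among the 5 WT libraries it was 66.7% for the 74 genes, against 55.2% for all tested genes.

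The libraries also differed by transcript length. The 26 tested genes of the set with a transcript of at most 600 bases, set against the 15 with a transcript over 1500 bases, had a ratio of summed CPM of 7.72, 0.251, 0.889, 0.021 and 0.378 in KO libraries 1 to 5. In WT libraries 1 to 5 this ratio was 0.251, 0.22, 0.945, 0.728 and 0.246. Over all tested protein-coding genes, 121 short and 6132 long, the ratio was 0.166, 0.0365, 0.0254, 0.0255 and 0.0215 in the KO group. It was 0.0196, 0.0221, 0.0699, 0.0639 and 0.0214 in the WT group. Without Atp5b, which is among the long transcripts, the ratio in the set was 16.1, 0.635, 2.88, 0.0399 and 1.96 in KO libraries 1 to 5, against 0.823, 0.544, 1.85, 1.57 and 0.654 in WT libraries 1 to 5. The KO ratios rest on few genes. Without Atp5b, 3, 11, 10, 9 and 3 short genes were above 3 counts in KO libraries 1 to 5. The long genes above 3 counts numbered 1, 6, 4, 7 and 1. In KO libraries 1 and 5 the long gene was Ndufs4, with 48 and 233 counts. In WT libraries 24 to 26 short and 14 long genes were above 3 counts. KO library 1 had the highest ratio under each count, and KO libraries 3 and 5 lay above every WT library in the set only without Atp5b. WT libraries 3 and 4 had the highest ratios of the WT group under each count. WT libraries 3 and 4 were also the highest of their group for the short transcripts Cox6a1, Cox8a and Uqcrq. Other short transcripts went another way: Uqcrh was highest in WT library 1, Ndufc1 in WT library 5 and Uqcrb in WT library 2. Any part of these length ratios in the differences between KO and WT was not tested.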

How the data were processed

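Whole RNA of sorted lung ILC2 went into stranded libraries, per the labels' protocols. The deposited table holds whole-number read counts per gene for 5 KO and 5 WT libraries, not normalized. STAR 2.6.0c, SAMtools 1.8 and HTSeq 0.9.1 and the build GRCm38 are named in the submitters' processing notes. How reads were assigned to strands, and with which annotation, is not given in the sources used here. The genotype in the labels set the groups, and libraries were numbered in order of deposit, which pairs nothing.

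The count of each gene was tested with edgeR 4.0.16 in R 4.3.3 (quasi-likelihood test, filterByExpr with a minimum count of 10, TMM scaling, Benjamini-Hochberg over the 7490 genes kept, threshold 0.05). The procedure was tested on simulated data. The simulated counts had the spread of the WT libraries, so the wider spread of the KO libraries was not covered. CPM are counts scaled by the TMM-adjusted library size. Where all KO libraries were at 0, a bound was computed from a floor of 3 counts for the whole group, and where they held 1 to 3 counts the ratio has an exact 95% interval. Both cover counting error only, and PCR copies of a molecule are not told apart in them. Symbols, spans and transcripts came from GENCODE vM21 on GRCm38, and promoters from RefSeq on GRCm38.p6. Shared 31-base stretches were counted for the shortest principal transcript of a gene against transcripts of all other genes.

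The genes of the set, the lists and the rules were chosen with earlier results of these data known. Genes were named by rule: in each complex the 3 with the highest WT mean, up to 4 that passed by smallest p and up to 2 detected in the most KO libraries, then all Sdh genes, the isoform sets, Maf and up to 3 of each list by smallest p. Alternatives were RLE and library-size scaling, scaling without globin and mitochondrially encoded genes, DESeq2 1.42.0, voom (limma 3.58.1), no filter, a threshold of 0.01, leaving out each library in turn, and leaving out KO libraries 1 and 5. Missing genes were also counted at 0 or at most 10 counts and after thinning to the smallest library. Protein sequences were not used here. The values of 1 tested gene, which stays in the counts and fits, are not reported here.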

Additional observations from a re-analysis of the deposited data

Results flagged for a closer look

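A library was marked where its gap to the nearest other library of its group took more than 0.71 of the range of the group, a size that chance gives in about 1 in 20 groups of normally spread values. That rate does not hold for groups with most libraries at 0 or at a ceiling. Some of the genes were also chosen after their values were seen, so the marks describe the values and test nothing. The rule was run on the genes whose CPM are given by library, on Cox4i2, mt-Nd2 and mt-Nd4 and on the sums and shares per library, and not on genes given only in counts of lists or by a fold change. For genes, 28 KO groups and 5 WT groups met it in CPM, and the number of detected genes did so in WT. The share was 1 for Ndufa10, Ndufs7 and Atp5o in KO library 2, for Ndufs1 and Ndufa8 in KO library 5, and for Sdhc, Cox6c, Atp5g2, Tfam and Maf in KO library 4, since the other KO libraries were at 0 or nearly so. In KO library 4 it was also 0.997 for Ndufv2, 0.997 for Cox6b1, 0.978 for Atp5g1, 0.933 for Cox7a2l, 0.885 for Atp5c1, 0.854 for Uqcrc2 and 0.826 for Uqcrfs1. In KO library 1 it was 0.992 for Ndufaf8, 0.980 for Uqcrq, 0.975 for Atp5k and 0.879 for Atp5e. In KO library 2 it was 0.997 for Atp5g3, 0.947 for Uqcrc1, 0.946 for Atp5l and 0.923 for Atp5a1, and in KO library 3 it was 0.998 for Cox7a2 and 0.996 for Ndufa4. In KO library 5 it was 0.826 for Cox7b2. All of these KO libraries were the highest of their group.

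In the WT group, library 2 was highest for Ndufs4 (0.726) and Atp5l (0.905), library 2 alone had a count of Cox4i2 (1), library 4 was highest for Cox7a1 (0.817), and library 1 was lowest for Atp5a1 (0.782). WT library 1 was also lowest in the number of tested genes of the set above 3 counts, with 71 against 74 in each of the other WT libraries (share 1).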

How the results depend on the processing

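No paired analysis was possible because the labels give the KO and WT libraries no shared numbers. Members of the set called lower, 25 in the test reported, ranged from 23 to 39 when single libraries were left out, with 39 without KO library 3 and 38 without KO library 4, and from 21 to 34 under all other settings. Ndufa10 and Ndufa1 were the calls lost most often. Members called higher, 0 in the test reported, numbered 1 with RLE scaling (Ndufaf8), 1 with DESeq2 (Cox7b2), 2 without a filter (both), 1 without KO libraries 1 and 5 (Ndufv2), and 0 to 1 with single libraries left out (Ndufaf8). Over all genes, lower calls (2027) ranged from 1734 to 3350 with single libraries left out and were 3291 without KO libraries 1 and 5. Higher calls (112) ranged from 82 to 333 with single libraries left out and were 193 with RLE scaling, 49 with library size, 1512 with DESeq2, 71 with voom, 2345 without a filter, 348 without KO libraries 1 and 5 and 40 at an adjusted p of 0.01. Lower calls made up 94.8% of all calls, but 63.3% with DESeq2 and 56.3% without a filter. The median log2 fold change of all genes shifted by 0.56 with RLE scaling, 0.50 with DESeq2, -1.30 with library size and -3.11 with voom, and that of the members, -1.76, became -1.13, -1.13, -3.03 and -4.24. The share of members missing from KO libraries, 74.1%, was 59.7% when missing meant 0 counts. With library size alone the log2 ratio of summed levels was 0.097 for complex I, -1.14 for complex III and -0.75 for complex V, against 1.59, 0.61 and 0.59.

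Fold changes of the opposite sign arose for genes that did not pass in the test reported, as follows. Of these turned values, 6 passed as lower: Ndufs4 without KO libraries 1 and 5 (adjusted p = 0.00852), Ndufa8 without KO library 5 (adjusted p = 0.00624) and without KO libraries 1 and 5 (adjusted p = 0.0116), Ndufs7 without KO library 2 (adjusted p = 0.00598), Ndufa4 without KO library 3 (adjusted p = 0.00781) and Cox6b1 without KO library 4 (adjusted p = 0.0151). In each of these the libraries left out held nearly all KO counts of the gene, so the pass was nearly fixed in advance. With RLE scaling the turned values were Cox7a2 (0.31) and Atp5g3 (0.29). With library size alone they were Ndufs4 (-1.63), Uqcrq (-0.89), Atp5b (-1.06), Ndufa4 (-0.064), Cyc1 (-0.95), mt-Cytb (-0.27) and mt-Nd4 (-0.49). With voom they were Ndufs4 (-3.15), Ndufa3 (-0.99), Ndufv2 (-2.18), Uqcrq (-2.55), Uqcrfs1 (-2.11), Atp5b (-0.20), Atp5d (-1.56), Ndufa4 (-4.07), Cyc1 (-3.15), Ndufs7 (-3.40), Ndufs8 (-2.72), Ndufv1 (-2.46), Ndufa8 (-1.94), Uqcrc1 (-3.24), Cox6b1 (-3.06) and Atp5k (-0.48). With DESeq2 they were Cox7a2 (0.24) and Atp5g3 (0.26). Without a filter they were Ndufs4 (-0.17), Atp5b (-0.17) and Cyc1 (-0.16). Without KO libraries 1 and 5 they were Ndufs4 (-8.22), Sdha (0.22), Sdhc (0.066), Uqcrq (-2.68), Atp5c1 (0.13), Cox7a2 (0.66), Atp5g3 (0.69), Cyc1 (-0.053), Ndufa8 (-10.29) and Atp5k (-0.35). With single libraries left out, the range of the log2 fold change crossed 0 for Ndufs4 (-0.41 to 0.98), Ndufv2 (-2.86 to 5.24), Sdhc (-11.63 to 0.11), Uqcrq (-3.04 to 3.21), Uqcrfs1 (-0.27 to 2.09), Atp5b (-0.25 to 0.49), Cox7a2 (-8.07 to 0.92), Ndufa4 (-6.15 to 1.20), Atp5g3 (-7.85 to 0.50), Cyc1 (-0.39 to 0.73), Ndufs7 (-7.63 to 3.54), Ndufa8 (-10.13 to 6.35), Uqcrc1 (-2.07 to 2.18), Cox6b1 (-5.95 to 2.30) and Atp5k (-0.73 to 5.25).

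Among the single genes, 784 settings kept sign and side of the threshold, 11 lost a call, 40 gained one and 69 turned the sign. Total counts of 3620002 to 9867580 in KO, against 21400938 to 24489987 in WT, limit what can be seen of genes near the floor of 3 counts, so a missed threshold there says nothing about equal expression.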

Other observations

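The 15 genes of the set that were too low to test were missing from all 5 KO libraries in 12 cases. The filter itself picks out genes with few counts, and the same share over the other genes too low to test was not computed. Cox7b2 was chosen after its values were seen: it had 0, 0, 0.411, 2.14 and 12.3 CPM in KO, against 0, 0, 0.03, 0.0664 and 0 CPM in WT. Ndufaf3, an assembly factor of complex I also chosen in this way, had no count in KO, against 0, 1.36, 3.51, 10.1 and 3.05 CPM in WT, at least 30.5-fold lower in KO, and it was too low for the expression filter of the test reported. Ndufaf3 was called lower by DESeq2, without a filter, without each KO library in turn, without WT library 1 and without KO libraries 1 and 5. Of the tested genes of the set that did not pass, 32 of 49 (65.3%) had at least 1 KO library above every WT library, against 77.0% of the 5351 such genes among all tested genes. In KO libraries 1 to 5, 4, 13, 8, 13 and 6 of the 74 tested genes lay above every WT library. These are 5.41, 17.6, 10.8, 17.6 and 8.11% of the set, against 10.1, 19.0, 21.1, 21.5 and 17.6% of all tested genes.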
